A study of Homo sapiens with 4 samples.

Results

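Centriolar satellites are small granules that gather around the centrosome, and MIB1 is one of their resident ubiquitin ligases. The genes described here are 9 satellite genes (PCM1, CEP131, CEP290, OFD1, PIBF1, CCDC14, CEP63, BBS4 and KIAA0586) and PLK4, the gene of the kinase that starts centriole duplication. They were taken by symbol from the deposited tables because their proteins are known to be bound or ubiquitinated by MIB1 or to sit on the same granules, and the selection rule uses no expression value, although earlier results of these data were known when it was drawn up. All 10 were found among the 58302 genes listed, and all 10 passed the filter on low counts that left 16181 genes to test. MIB1-iKO cells derive from NCI-H838, a line of human lung cancer (non-small-cell type), and carry an integrated guide RNA against MIB1 together with a Cas9 gene that doxycycline (dox) turns on. RNA was sequenced at day 3 from 2 samples labelled no dox and 2 labelled dox, the latter given 0.5 μg/mL according to the labels. Both groups carry the same construct, and the study's methods describe the MIB1-iKO lines as single-cell clones without the labels naming the clone or guide. Since none of the 4 samples is a line without a guide that received dox, effects of dox, of Cas9 cutting and of MIB1 loss cannot be told apart. The study calls the samples of a group biological replicates, while the labels do not say how they were separated, so the p-values below measure the spread between these libraries.

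Satellites are held together by the scaffold protein PCM1 and carry proteins along microtubules to and from the centrosome and the base of the primary cilium. At this site MIB1 attaches ubiquitin to PCM1, CEP131, the centriolar protein encoded by KIAA0586 (TALPID3) and PLK4, and it is known to restrain cilium formation in proliferating cells. This control acts on proteins, so the transcripts measured here describe the supply of each mRNA and not the amount of its protein.

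PLK4 transcription is tied to the cell cycle, so its promoter is shown before the values that set it beside cell-cycle genes. The stretches are RefSeq sequence on GRCh38.p14, plus strand of chromosome 4. The first covers the 250 bases before the most upstream PLK4 start in that table, chr4:127880643-127880892, with capitals marking a match to the ETS-type letters CCGGAAG on the opposite strand and overlapping matches to the NRF1-type letters GCGCATGC on both strands. The second covers 30 bases downstream of that start, chr4:127880913-127880942, with capitals marking a match to TTTGAA on the opposite strand, the letters of the cell cycle genes homology region (CHR).

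PLK4 upstream: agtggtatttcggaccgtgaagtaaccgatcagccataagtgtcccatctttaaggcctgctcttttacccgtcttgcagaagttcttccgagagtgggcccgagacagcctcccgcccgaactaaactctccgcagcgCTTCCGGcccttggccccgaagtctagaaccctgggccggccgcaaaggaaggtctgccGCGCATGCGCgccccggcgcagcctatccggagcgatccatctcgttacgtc
PLK4 downstream: ggcaagcggcgggagattTTCAAAatggga

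Promoter windows, from 250 bases before to 50 after a start, were searched for 9 of the 10 genes, 13 windows in all. Windows on chromosome 8, which holds PCM1, were left out of the search of the 10 genes, so the PCM1 promoter is not described. On either strand the CHR letters stood in a window of CEP290, KIAA0586 and PLK4, and in 15.2% of all 35116 windows. The E2F-type letters TTTNNCGC stood in windows of PIBF1 and CEP63 (6.89% of all windows). NRF1-type letters stood in those of KIAA0586 and PLK4 (3.05%). ETS-type letters stood in those of OFD1, PIBF1, CCDC14, BBS4 and PLK4 (10.3%). Letters GTTNCC, part of the X-box read by the ciliary RFX factors, stood in those of CEP290, OFD1, CEP63, BBS4 and KIAA0586, against 45.4% of all windows. The letters CCAAT stood in those of CEP131, PIBF1, CCDC14, KIAA0586 and PLK4 (34.6%). A gene was named if any of its windows held the letters, and PLK4, CEP63 and KIAA0586 had more than a single window. The shares are per single window, so the names and the shares are not directly comparable. Each match is a run of letters and not a shown binding site.

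The targeted gene was examined first. Reads of MIB1 numbered 598 and 588 without dox but 90 and 59 with it, so on the log2 scale it stood at -2.58 ± 0.23 (SE; limma, adjusted p = 0.000375), in the direction the labels give. The libraries held between 15943025 and 24398411 reads, fewer in both dox libraries. Of the epithelial markers, KRT8, KRT18 and EPCAM were read in every library, and of these KRT18 (-0.41) and KRT8 (-0.34) had an unadjusted p under 0.05 with adjusted p-values of 0.339 and 0.362 (limma). In contrast, KRT19, NKX2-1 and SFTPB had 0 reads and SFTPC at most 8, so the lung lineage is not shown by these markers. Markers of other cell types had at most 10 reads per library, except COL1A1 with 22 to 89.

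All 10 genes were transcribed in NCI-H838 cells. Levels are given as RPKM, the authors' reads scaled to gene model length and to library depth, which allows genes of different length to be ranked. BBS4 was the highest at 34.99 ± 4.18 RPKM (SD over the 4 libraries), above 85.3% of the genes tested. PIBF1 followed at 18.9 ± 0.849 RPKM, then PLK4 at 5.12 ± 0.370 and PCM1 at 3.97 ± 0.409. CCDC14 stood at 2.63 ± 0.214 RPKM, CEP290 at 1.88 ± 0.207 and OFD1 at 1.83 ± 0.219. The lowest were CEP63 at 1.498 ± 0.219, KIAA0586 at 1.33 ± 0.118 and CEP131 at 0.695 ± 0.126 RPKM, the last above only 16.1% of genes tested. Ranges over the 4 libraries did not overlap between neighbours in this order down to CEP290, nor between KIAA0586 and CEP131. CEP290 and OFD1, OFD1 and CEP63, and CEP63 and KIAA0586 overlapped and cannot be ranked against each other. The scaffold PCM1 and the kinase gene PLK4 thus stood near the middle of all tested genes, above 49.0% and 54.2% of them. The order depends on the gene model for CCDC14: per kilobase of its 4131-base MANE Select transcript its level, as CPM per kilobase, was 6.54, above PLK4 (5.34) and PCM1 (4.26) and below BBS4 and PIBF1.

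**Figure D1:**
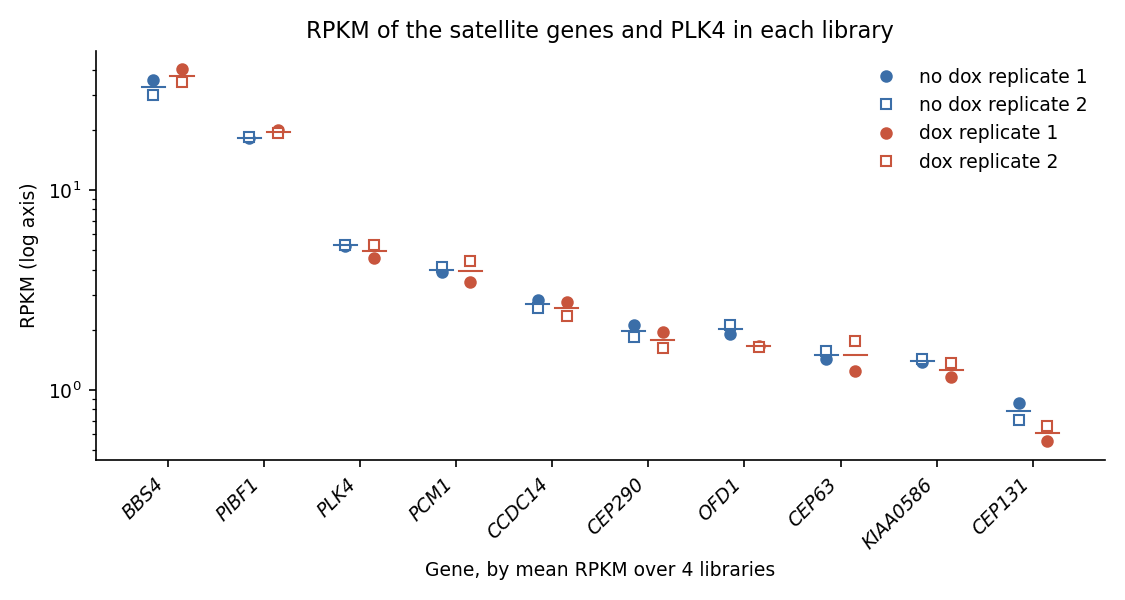
RPKM (log axis) of the 9 satellite genes and PLK4 in each of the 4 libraries, ordered by mean, with points for single libraries and short lines for group means. BBS4 and PIBF1 stand apart at 18.1 RPKM or more, CEP131 is the lowest at 0.553 to 0.857, and the no dox and dox points of each gene lie close together.

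Setting dox against no dox asks whether loss of a satellite ubiquitin ligase is accompanied by a change in the mRNA of its substrates and neighbours. None of the 10 genes was called by limma (adjusted p no higher than 0.05 with a 2-fold or larger change), a rule that called 0.0371% of the genes tested. None had an unadjusted p under 0.05 either, against 9.28% of the genes tested, and edgeR and DESeq2 likewise called 0 and gave 0 at an unadjusted p under 0.05. Log2 fold changes lay between -0.40 for CEP131 and 0.22 for BBS4, with 4 above and 6 below 0. Their median was -0.07, beside -0.00042 over all genes tested. The 95% interval stayed inside a 2-fold change in either direction for 9 of the 10 genes, as it did for 77.4% of all genes tested, and only the lower limit of CEP131 reached past it.

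The 4 known substrates were taken first. PCM1 (ENSG00000078674, chromosome 8, 17922842 to 18029948, plus strand) had 843 and 829 reads without dox, against 486 and 741 with it. In RPKM these were 3.89 and 4.11 against 3.46 and 4.43, so the dox libraries lay on either side of the no dox libraries. Group means were 4.0004 ± 0.153 and 3.95 ± 0.690 RPKM (SD, n = 2 in each group), with a log2 fold change of 0.01 (95% interval -0.30 to 0.32; limma, adjusted p = 0.992).

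CEP131 (ENSG00000141577, chromosome 17, 81189593 to 81222999, minus strand), also known as AZI1, encodes a satellite protein needed for normal cilia. It rested on the fewest reads, 74 and 57 without dox, against 31 and 44 with it. Both dox libraries, at 0.553 and 0.660 RPKM, lay below both no dox libraries, at 0.857 and 0.708. Its log2 fold change of -0.40 ± 0.30 (SE; 95% interval -1.04 to 0.25; limma, adjusted p = 0.730) was the lowest of the 10 and also the least precise. A lncRNA on the opposite strand shares 3.03% of its exonic bases, and no source states whether counting used strand.

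KIAA0586 (ENSG00000100578, chromosome 14, 58427385 to 58551297, plus strand) encodes TALPID3, a centriolar protein required to build cilia. Its reads numbered 283 and 272 without dox, against 154 and 215 with it, or 1.38, 1.42, 1.16 and 1.36 RPKM. Dox replicate 1 stood lowest, while dox replicate 2 was close to the no dox libraries. The difference was -0.13 ± 0.18 on the log2 scale (SE; 95% interval -0.51 to 0.24; limma, adjusted p = 0.868). The pseudogene HNRNPCP1 on the same strand shares 4.32% of its exonic bases.

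PLK4 (ENSG00000142731, chromosome 4, 127880893 to 127899224, plus strand) had 492 and 464 reads without dox, against 277 and 384 with it. Dox replicate 1 was the lowest at 4.57 RPKM, and the others were alike, at 5.26 and 5.33 RPKM without dox and 5.32 RPKM in dox replicate 2. The no dox libraries averaged 5.29 ± 0.0461 RPKM and the dox libraries 4.94 ± 0.535 RPKM (SD, n = 2 in each group). The estimate on the log2 scale was -0.09 ± 0.15 (SE; limma, adjusted p = 0.900), and its 95% interval ran from -0.41 to 0.23, or 0.752-fold to 1.18-fold.

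CEP290, OFD1 and BBS4 link satellites to the cilium. CEP290 (ENSG00000198707, chromosome 12, 88049016 to 88142099, minus strand) encodes a protein of the ciliary transition zone that also resides on satellites. It had 455 and 369 reads without dox, against 271 and 269 with it, or 2.12, 1.85, 1.95 and 1.62 RPKM. The groups overlapped in RPKM, and the log2 fold change was -0.13 (95% interval -0.48 to 0.22; limma, adjusted p = 0.863). C12orf29 on the opposite strand shares 1.59% of its exonic bases.

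OFD1 (ENSG00000046651, chromosome X, 13734743 to 13777955, plus strand) encodes a protein of the distal centriole and of satellites. With 168 and 172 reads without dox, against 95 and 111 with it, it stood at 1.91 and 2.10 RPKM against 1.67 and 1.64. Both dox libraries were thus the lower, and they were close to each other (SD 0.0207 RPKM, n = 2). The log2-scale difference, -0.27 ± 0.21 (SE; limma, adjusted p = 0.730), had a 95% interval from -0.71 to 0.17, which includes 0. GPM6B on the opposite strand shares 1.74% of its exonic bases.

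BBS4 (ENSG00000140463, chromosome 15, 72686179 to 72738475, plus strand) encodes the subunit of the BBSome, the coat complex for ciliary membrane cargo, that binds PCM1. It had the most reads of the 10, 2088 and 1638 without dox, against 1529 and 1564 with it. Its RPKM was 35.5 and 29.9 without dox and 40.1 and 34.5 with dox. In each group replicate 1 was the higher, and dox replicate 2 fell between the no dox libraries. BBS4 had the highest log2 fold change of the 10, 0.22 ± 0.12 (SE; 95% interval -0.05 to 0.49), and the lowest p (limma, unadjusted p = 0.0981, adjusted p = 0.625).

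The remaining genes, PIBF1, CCDC14 and CEP63, encode proteins of satellites and of the centriole wall. PIBF1 (ENSG00000083535, chromosome 13, 72782133 to 73016461, plus strand), also known as CEP90, had 1586 and 1504 reads without dox, against 1137 and 1297 with it. At 18.1 and 18.4 RPKM without dox and 20.0 and 19.2 RPKM with dox, both dox libraries were the higher. The log2-scale difference, 0.14 ± 0.12 (SE; limma, adjusted p = 0.767), had an interval from -0.11 to 0.38, among the narrowest of the 10.

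CCDC14 (ENSG00000175455, chromosome 3, 123897305 to 123961408, minus strand) had 683 and 577 reads without dox, against 432 and 438 with it. It stood at 2.83 and 2.57 RPKM against 2.76 and 2.35, with the groups interleaved, and the log2 fold change was -0.06 (95% interval -0.37 to 0.25; limma, adjusted p = 0.936). CEP63 (ENSG00000182923, chromosome 3, 134485699 to 134587789, plus strand) encodes a centriolar protein that helps bring CEP152, and through it PLK4, to the mother centriole. Its reads numbered 225 and 230 without dox, against 127 and 214 with it, or 1.43, 1.57, 1.24 and 1.76 RPKM. The dox libraries were its lowest and its highest, and mean RPKM was 1.496 ± 0.0982 without dox and 1.5004 ± 0.366 with it (SD, n = 2 in each group). The log2 difference was 0.01 (95% interval -0.42 to 0.44; limma, adjusted p = 0.993). A lncRNA on the same strand shares 8.32% of its exonic bases.

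**Figure D2:**
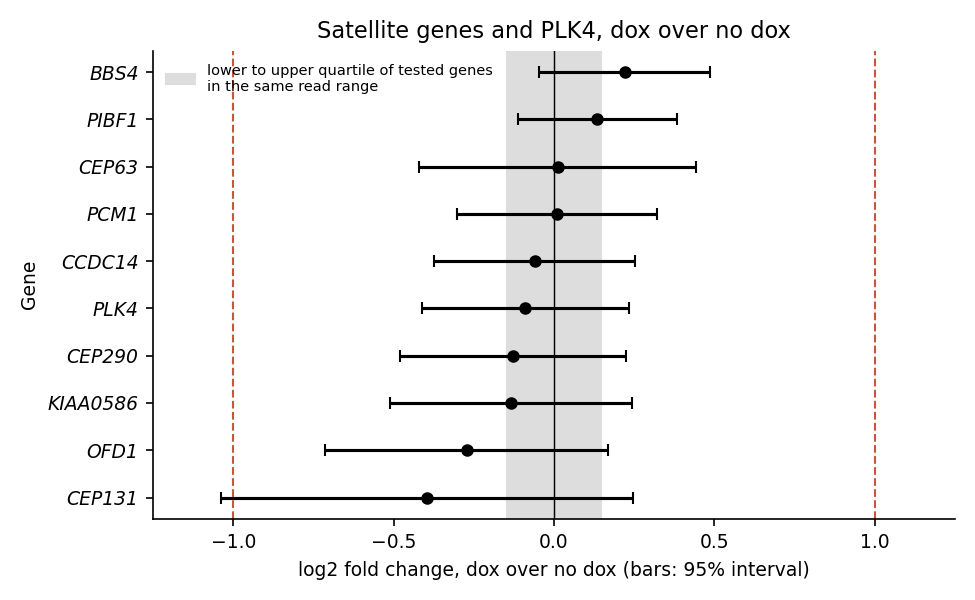
Log2 fold change of dox over no dox for each of the 10 genes, with points for the limma estimate, bars for its 95% interval, dashed lines at a 2-fold change and a grey band from the lower to the upper quartile (-0.15 to 0.15) of the 9809 tested genes in the same range of reads. Every interval includes 0, and only that of CEP131 crosses a 2-fold line.

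Whether the groups were separated depended on the scale. In RPKM 4 of the 10 genes had groups that did not overlap, CEP131, OFD1 and KIAA0586 lower and PIBF1 higher with dox, against 38.6% of the genes tested. In CPM, which divides reads by the library total only, there were 6, with CEP131, CEP290, OFD1 and CCDC14 lower and PIBF1 and BBS4 higher, against 36.1%. CEP131, OFD1 and PIBF1 were apart on both scales. The authors' RPKM carries a further factor for each library that the totals do not, 0.649 and 0.771 for the dox libraries relative to no dox replicate 1, where the totals stood at 0.653 and 0.699.

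The dox replicates differed from each other by more than the groups did for PCM1, CEP290, CCDC14, CEP63, KIAA0586 and PLK4, and by less for CEP131, OFD1, PIBF1 and BBS4. On normalised log2 CPM, dox replicate 1 minus dox replicate 2 was -0.51 for CEP63, -0.38 for PCM1, -0.29 for CEP131, -0.23 for KIAA0586 and -0.22 for PLK4. The same difference was positive for CEP290 (0.24), CCDC14 (0.24) and BBS4 (0.18), and near 0 for PIBF1 (0.02) and OFD1 (-0.02). Between the no dox replicates CEP290 (0.22), CCDC14 (0.16), BBS4 (0.22) and CEP131 (0.25) were higher in replicate 1, and KIAA0586 (0.0013) and PLK4 (-0.0071) hardly differed. The median of the 10 genes, each taken relative to its own mean, was 0.06 and 0.04 without dox but -0.15 and 0.04 with it. Dox replicate 1 alone was low. The median of 15 G2/M genes listed for comparison was likewise lowest there, at -0.17. Without dox replicate 1, the median log2 fold change of the 10 genes was -0.0028 in place of -0.07. Without dox replicate 2 it was -0.19. Dox replicate 1 also had the fewest reads. With every library thinned to that depth, which leaves dox replicate 1 itself unchanged, the median was -0.09. Whether the depth of dox replicate 1 bears on its low values was not tested.

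**Figure D3:**
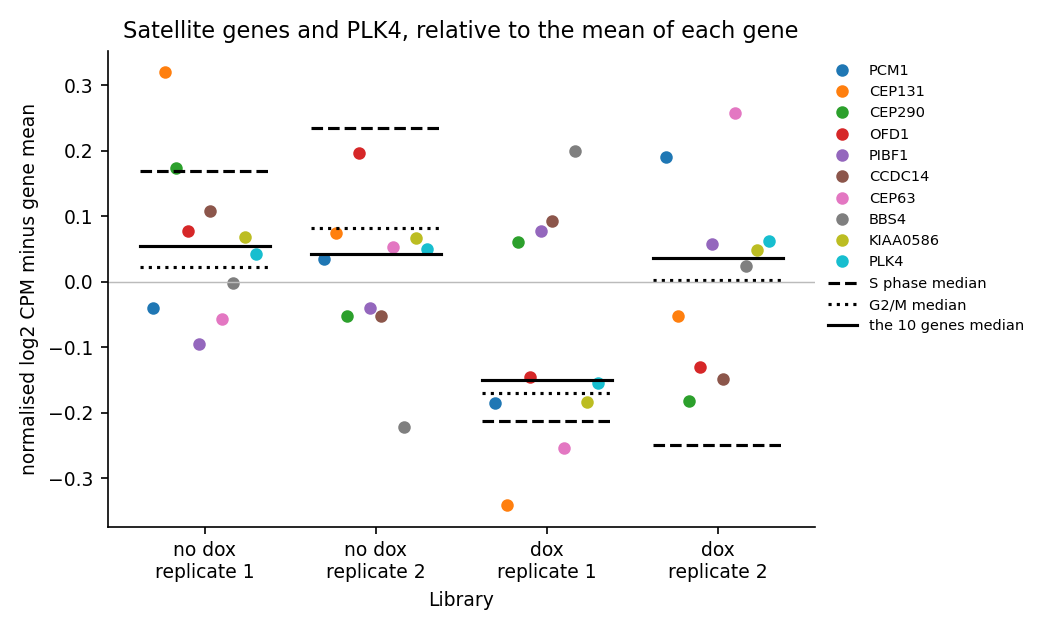
Normalised log2 CPM of each of the 10 genes minus the mean of that gene, by library, with lines for the median of the 10 genes (solid), of 15 S-phase genes (dashed) and of 15 G2/M genes (dotted). The solid line drops to -0.15 in dox replicate 1 only, whereas the dashed line lies at 0.17 and 0.23 without dox and at -0.21 and -0.25 in both dox libraries. The dotted line lies at 0.02 and 0.08 without dox. Like the solid line it drops in dox replicate 1, to -0.17, and stands at 0.0034 in dox replicate 2.

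Related genes were listed to set the 10 in context, and none of the 121 tested among 122 listed was called by limma. At an unadjusted p under 0.05 there were 21 of these 121 genes (4 higher, 17 lower), 10 of them S-phase genes, beside 9.28% of all genes tested (758 higher, 743 lower), while edgeR gave 24 and DESeq2 14. Of 18 other satellite genes, 5 lay above and 13 below 0, with a median of -0.09. CCDC18 had 480 and 390 reads without dox, against 231 and 245 with it, for a log2 difference of -0.40 ± 0.16 (SE; limma, unadjusted p = 0.0281, adjusted p = 0.467). WDR90 (-0.78 ± 0.33, SE) had 122 and 65 reads against 35 and 44, so its no dox libraries differed from each other by nearly as much as the groups did (limma, adjusted p = 0.482). CCDC13 (2.22 ± 0.73, SE) rested on 1, 6, 10 and 10 reads (limma, adjusted p = 0.355). PARD6A (0.20) was the highest of the better-covered satellite genes.

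The centriole duplication list holds the partners of PLK4. Its 23 genes, 11 above and 12 below 0, had a median of -0.01. STIL, the direct partner and substrate of PLK4, had 810 and 637 reads without dox, against 420 and 398 with it, for a log2 difference of -0.34 ± 0.16 (SE; limma, unadjusted p = 0.0459, adjusted p = 0.527). TEDC2, which encodes part of a complex that stabilises centrioles, had -0.47 ± 0.21 (SE; limma, adjusted p = 0.520). FBXW11, an F-box gene of the ubiquitin ligase family that degrades PLK4, had 0.32 ± 0.14 (SE; limma, adjusted p = 0.499), with 1040, 1000, 737 and 1119 reads. In CPM dox replicate 1 (46.2) lay between the no dox libraries (42.6 and 47.2), and only dox replicate 2 (65.6) lay above them. In RPKM both dox libraries were the higher. SASS6, the cartwheel gene, had -0.11, CEP152, the gene of the PLK4 receptor that works with CEP63, had 0.07, and both were named after their values were seen.

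Lists for the pericentriolar matrix (11 genes, median 0.11), the other BBSome genes (7 of 8 tested, median 0.04) and the cilium base (27 genes, median 0.02) were centred near 0. In the matrix list CROCC (0.50) and PCNT (-0.41), the pericentrin gene, were the extremes. BBIP1 (0.17) and TTC8 (-0.04) bounded the BBSome list, where TTC8 is also a satellite gene. NPHP4, a transition zone gene, had 169 and 180 reads without dox and 70 in each dox library. Its groups were far apart at 1.504 ± 0.142 and 0.825 ± 0.101 RPKM (SD, n = 2 in each group), with a log2 fold change of -0.86 ± 0.23 (SE; limma, unadjusted p = 0.00198, adjusted p = 0.246). CEP83 (0.25) was the highest well-covered gene of that list. Of 6 genes of other reported MIB1 substrates and satellite deubiquitinases, 5 lay above 0 and 3 had an unadjusted p under 0.05, with a median of 0.17. Among them GABARAP (0.39), an autophagy gene tied to satellites, and EPB41L5 (-0.41), a cell polarity gene, had adjusted p-values of 0.407 and 0.370 (limma). CYLD and USP9X, deubiquitinase genes that act on MIB1 or on its satellite substrates, had 0.33 (limma, unadjusted p = 0.0236, adjusted p = 0.452) and 0.14.

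**Figure D4:**
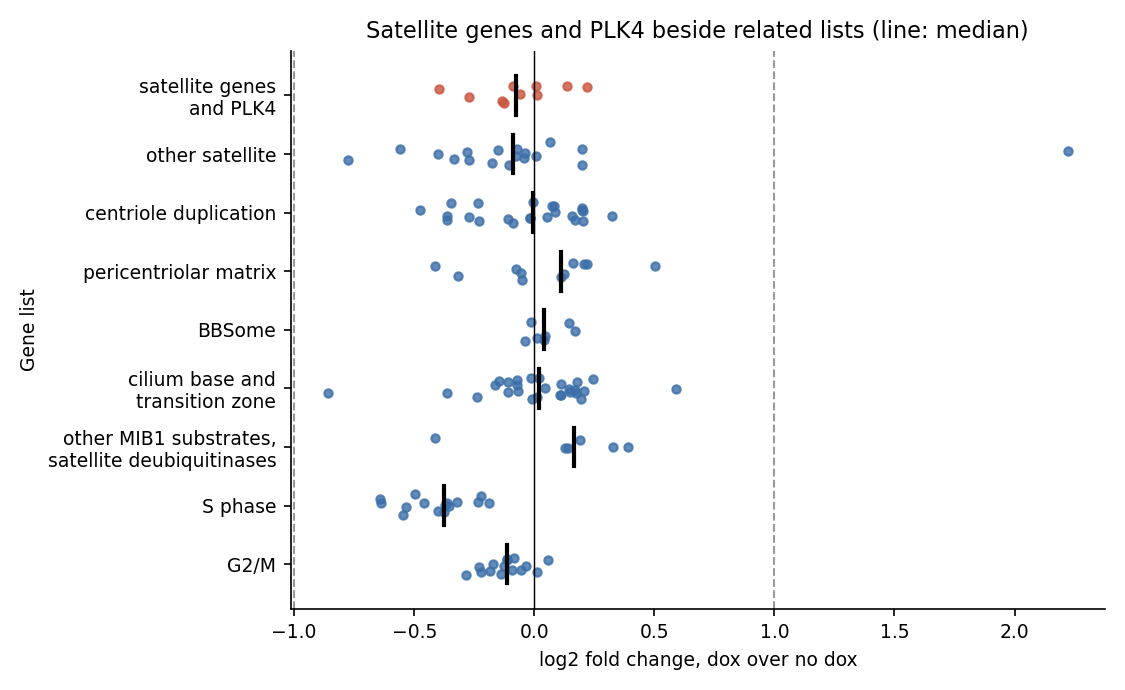
Log2 fold change of dox over no dox for the 10 genes (red) and for the genes of 8 related lists (blue), 1 point per tested gene, with a bar at each median and dashed lines at a 2-fold change. The 10 genes have a median of -0.07. The medians of the other satellite, centriole, pericentriolar matrix, BBSome and cilium lists lie between -0.09 and 0.11. That of other MIB1 substrates and deubiquitinases lies at 0.17 and that of the G2/M list at -0.11. The S-phase list lies wholly below 0 with a median of -0.37.

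PLK4 was then set beside genes of the cell cycle. All 15 S-phase genes listed had a negative log2 fold change, from -0.64 for GINS2 to -0.19 for MCM6, and 13 of the 15 had groups that did not overlap in CPM (36.1% of all genes tested). Mean RPKM and mean CPM were also lower with dox for all 15. The 15 G2/M genes had a median of -0.11, with 13 below 0, and ran from -0.28 for CCNB1 to 0.06 for NEK2. PLK4 at -0.09 lay outside the range of the S-phase list and within that of the G2/M list. The difference between PLK4 and either list was not tested. Over the 4 libraries the listed genes whose log2 CPM, relative to its own mean, was nearest to that of PLK4 were HOOK3, TUBG1 and KIAA0586, at root mean square differences of 0.0228, 0.0234 and 0.0282. Each was lowest in dox replicate 1 and above its mean in dox replicate 2, and 4 libraries are too few for more than this description. This CPM is scaled by the library total only, without quantile normalization, so a shift common to many genes of a library stays in it. How far such a shift feeds the likeness was not tested.

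Fold changes of CEP131, OFD1, PIBF1, BBS4 and KIAA0586 kept their sign under all 14 alternatives tried. Values for CEP131 ranged from -0.55 to -0.15, for OFD1 from -0.33 to -0.18, for PIBF1 from 0.10 to 0.17, for BBS4 from 0.11 to 0.33 and for KIAA0586 from -0.25 to -0.02. PLK4 crossed 0 only without dox replicate 1 and CEP290 only without dox replicate 2, and CCDC14 did so without no dox replicate 1 or dox replicate 2. PCM1 and CEP63 changed sign in 9 and 5 of the 14 alternatives.

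**Figure D5:**
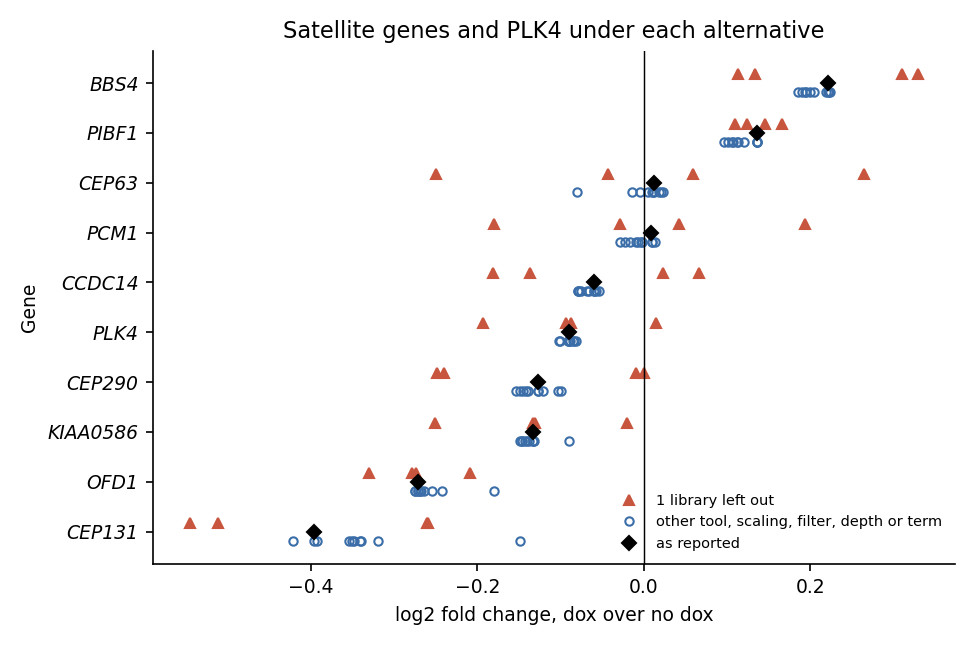
Log2 fold change of dox over no dox for each of the 10 genes as reported (diamonds), with another tool, scaling, filter, depth or model term (circles) and with 1 library left out (triangles). The triangles spread most, from -0.25 to 0.26 for CEP63, and no value of any gene passes a 2-fold change.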

How the data were processed

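RNA-seq of 4 samples (2 no dox, 2 dox) was analysed. By the published methods, the authors discarded ribosomal reads, then used GSNAP for alignment (GRCh38) and HTSeqGenie for counting over exons. The deposited counts are raw whole numbers per gene. The deposited RPKM values are scaled by the authors to gene model length and depth, with a further factor per library. The kit and the use of strand are not given for these samples. Symbols and positions follow GENCODE release 44, which named 57532 of 58302 identifiers. At these depths 0 reads allow up to 3, for counting error only.

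Genes passing filterByExpr were fitted with voom, quantile normalization and limma 3.58.1 (R 4.3.3), as in the study's methods, and p-values were adjusted by Benjamini-Hochberg over 16181 genes. Called genes had an adjusted p no higher than 0.05 with a log2 change of 1 or more either way. Alternatives were edgeR 4.0.16, DESeq2 1.42.0, other scalings, filters, units and depths, a replicate term and leaving out each library. Fits were tested on simulated data. The 10 genes, the lists and the tests were chosen with earlier results of these data known. Lists came from general knowledge. The genes named are the 10, MIB1, the called or else highest and lowest genes of each list averaging 50 reads or more, those with an unadjusted p under 0.05 on the satellite and centriole lists, and the 3 nearest to PLK4. Other genes named from the lists are SASS6, CEP152, CYLD, USP9X and the markers.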

Additional observations from a re-analysis of the deposited data

How the results depend on the processing

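None of the 10 genes was called under any of the 14 alternatives or at an adjusted p of at most 0.05 with no fold threshold. PCM1 turned negative with edgeR (-0.0096), DESeq2 (-0.0040), voom with TMM (-0.017), library size only (-0.0074), log2(RPKM + 0.1) (-0.029), log2(RPKM + 1) (-0.022) and thinning to the smallest total (-0.0020). CEP63 did so on log2(RPKM + 0.1) (-0.014), log2(RPKM + 1) (-0.0049) and after thinning (-0.080). With 1 library left out, ranges were -0.18 to 0.19 for PCM1, -0.25 to 0.26 for CEP63, -0.25 to 5.3e-05 for CEP290, -0.18 to 0.067 for CCDC14 and -0.19 to 0.015 for PLK4. The median of the 10 genes ranged from -0.19 (without dox replicate 2) to -0.0028 (without dox replicate 1). MIB1 missed the adjusted threshold with no count filter (-2.58), on log2(RPKM + 0.1) (-2.33), on log2(RPKM + 1) (-1.34) and with 1 library left out (-2.998 to -2.16); the cause was not tested. In those last fits the lone sample of a group is assumed to vary like the other group.

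The groups share replicate numbers whose meaning the labels do not give. Deviations of same-numbered samples from their group means correlated at 0.13, and 2 pairs are too few to establish a pairing. With the replicate block, which leaves 1 residual degree of freedom, called genes rose from 6 to 78 over all genes and from 0 to 1 among the related genes listed. The 10 genes stayed at 0 called, with BBS4 lowest (unadjusted p = 0.00427, adjusted p = 0.0566, limma). No call for the 10 genes changed under the block. Depth limits CEP131 most: on 31 to 74 reads, its interval reaches from -1.04 to 0.25.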
